A study of Homo sapiens with 8 samples.

Results

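AXL, TYRO3 and MERTK, the TAM receptors, and their ligands GAS6 and PROS1 (protein S) were followed in HCT-116 cells, an established human colorectal cancer line, after knockdown of *HHEX*, of *YAP1* and *WWTR1*, or of the *TEAD* genes. The 5 genes were chosen by name out of 20030 genes listed in each library. RNA was sequenced in 8 libraries of these cells after transfection of siRNA. A control siRNA was used in 2 libraries (siNC), an siRNA against *HHEX* in 3 (siHHEX), a pair of siRNAs against *YAP1* and *WWTR1*, the gene of TAZ, in 2 (siYAP/TAZ), and a pair of siRNAs, 1 designed for *TEAD1*, *TEAD3* and *TEAD4* and 1 for *TEAD2*, in 1 library (siTEAD1/2/3/4). The methods list as many siRNAs against *HHEX*, and as many pairs against *YAP1* and *WWTR1*, as there are libraries of each. The number of a library was therefore taken here as the number of its siRNA, which the labels do not state. On that reading, replicates of a knockdown also differed in reagent. All 8 libraries carried a transfected siRNA, and cells without one were not analysed here. The siHHEX 3 library was registered apart from the others, and whether it was also prepared apart is not stated in the labels. The question was which of the TAM genes changed with each knockdown, and by how much. The authors deposited FPKM values, in which the fragments assigned to a gene are divided by its length and by the size of the library, so that levels can be set side by side between genes.

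TAM receptors are tyrosine kinases that sit in the plasma membrane. GAS6 and protein S bridge them to phosphatidylserine, the lipid that dying cells turn outward, and both ligands must be carboxylated in a vitamin K-dependent step to bind it. GAS6 binds all TAM receptors, and AXL with the highest affinity, whereas protein S acts on TYRO3 and MERTK. MERTK is best known from macrophages that engulf dying cells, and AXL from carcinoma cells, where it goes with invasion and drug resistance. *AXL* is an established target gene of YAP and TEAD: TEAD factors bind DNA, YAP and TAZ are their coactivators, and HHEX is a homeobox transcription factor that binds TEAD4 and YAP.

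The siRNA targets were examined first. *HHEX* stood at 8.60 and 9.06 FPKM in siNC and at 3.25, 3.54 and 1.85 FPKM in siHHEX 1, 2 and 3, so that all siHHEX libraries lay below the control. *WWTR1* stood at 6.80 and 6.72 FPKM in siNC and at 2.64 and 2.58 FPKM in siYAP/TAZ. *YAP1* stood at 20.2 and 19.7 FPKM in siNC and at 6.90 and 8.39 FPKM in siYAP/TAZ. It lay lower in both knockdown libraries, although its difference did not pass the test across genes (log2 difference -1.28, limma adjusted p = 0.0681). Corrected for GC content and length, it was at -1.40 and passed (limma adjusted p = 0.035). In siTEAD1/2/3/4, *TEAD4* was at 26.7%, *TEAD1* at 48.4% and *TEAD2* at 72.0% of the siNC mean, whereas *TEAD3* was at 127%.

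The cells carried the markers of the epithelium they derive from and almost none of the cell types in which TAM genes are otherwise studied. All 5 epithelial markers were expressed, and *KRT8*, a keratin of simple epithelia, was the most abundant, at 1591 and 1707 FPKM in siNC. The 6 macrophage markers summed to at most 0.425 FPKM in any library and the 3 endothelial markers to at most 0.0882 FPKM. The 4 fibroblast markers summed to between 0.657 and 2.40 FPKM, nearly all of it *COL1A1*, while *PDGFRA* was at 0 or near 0 throughout. *KRT8* and *KRT18* were lower in siYAP/TAZ (log2 differences -0.88 and -1.22, limma adjusted p = 0.00227 and 0.000861), while *KRT19* (-0.37), *EPCAM* (-0.14) and *CDH1* (0.30) did not pass (limma adjusted p = 0.179, 0.487 and 0.4). The part of these keratins in the TAM differences of siYAP/TAZ was not tested. In siHHEX, *EPCAM* and *KRT18* were lower (log2 differences -0.38 and -0.29, limma adjusted p = 0.0289 and 0.0348), and *CDH1* (-0.12), *KRT8* (0.04) and *KRT19* (0.21) did not pass (limma adjusted p = 0.65, 0.738 and 0.285). Corrected for GC content and length, *KRT18* (-0.68) and *KRT8* (-0.34) were lower and *EPCAM* (-0.26) did not pass (limma adjusted p = 0.0044, 0.0422 and 0.102). The part of these genes in the TAM differences of siHHEX was not tested either. In bulk RNA, fewer cells of a kind and less RNA per cell cannot be told apart.

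In control cells, *AXL* was the main TAM receptor and *GAS6* the main ligand. *GAS6* was highest of the 5 genes in siNC, at 23.7 ± 1.80 FPKM (SD, n = 2), followed by *AXL* at 18.9 ± 0.0395 FPKM (SD, n = 2), *TYRO3* at 6.10 ± 0.531 FPKM (SD, n = 2), *PROS1* at 2.46 ± 0.0426 FPKM (SD, n = 2) and *MERTK* at 0.878 ± 0.205 FPKM (SD, n = 2). No neighbours in this order overlapped between the siNC libraries. *AXL* made up 73.7% and 72.3% of the summed receptor FPKM, and *GAS6* 90.2% and 90.9% of the summed ligand FPKM. These are mRNA levels, and protein was not analysed here.

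**Figure D1:**
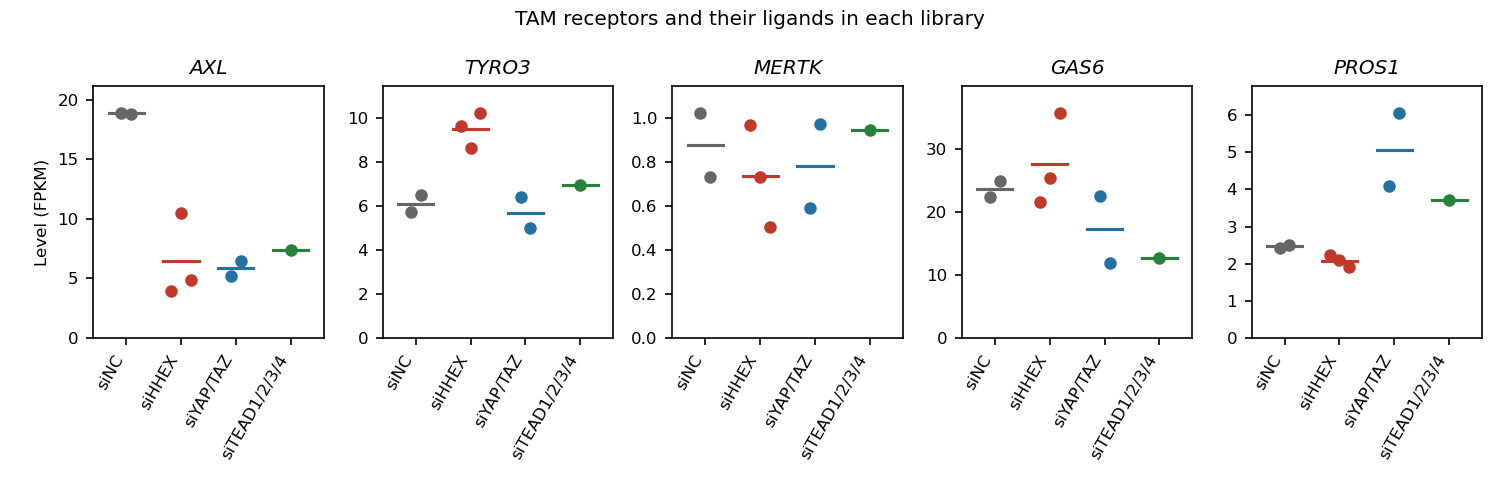
Level of each gene in FPKM (vertical axes, each from 0) in every library, by siRNA group, with a line at the group mean. *AXL* lies between 3.98 and 10.5 FPKM in the siHHEX libraries and at 18.9 FPKM in siNC, *TYRO3* is raised in siHHEX, *PROS1* is raised in siYAP/TAZ, and *MERTK* stays near 1 FPKM or below.

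*AXL* occupies chromosome 19 of GRCh38 from 41219223 to 41261766 on the plus strand, with 20 exons in its GENCODE canonical transcript. RefSeq gives it a pair of start sites, the first at the start of the gene and the second within an intron of the longer transcript. The 250 bases before each are shown because *AXL* was lower when TEAD factors or their coactivators were targeted. Capitals mark the letters GGGCGG, the core of the GC box, and GGAATG, the core of the TEAD motif, each searched on both strands.
AXL, first start, chr19:41218973-41219222, plus strand: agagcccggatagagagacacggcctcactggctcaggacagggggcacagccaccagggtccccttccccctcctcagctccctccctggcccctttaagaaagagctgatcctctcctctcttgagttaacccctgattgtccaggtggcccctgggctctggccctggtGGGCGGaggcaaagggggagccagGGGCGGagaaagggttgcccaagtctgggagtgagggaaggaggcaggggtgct
AXL, second start, chr19:41226505-41226754, plus strand: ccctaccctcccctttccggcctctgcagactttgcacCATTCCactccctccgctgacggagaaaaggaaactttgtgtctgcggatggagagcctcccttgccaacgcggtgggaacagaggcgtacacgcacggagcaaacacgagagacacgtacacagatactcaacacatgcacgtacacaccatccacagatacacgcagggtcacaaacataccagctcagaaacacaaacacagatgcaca
The first window held 2 GC boxes, at 78 and 54 bases before the start, and the second held 1 TEAD motif, at 212 bases before the start and on the other strand. Of 35116 RefSeq promoter windows of this length, 42.6% held a GC box and 11.9% a TEAD motif. The letters TGANTCA, a loose form of the AP-1 motif in which N is any base, were in 6.57%. All these letters are thus common, and a match is not a bound site. TGANTCA was in neither *AXL* window. Among the other members, *TYRO3* held 3 GC boxes before its first start and 1 match to TGANTCA, which read TGAATCA. *MERTK* held 4 GC boxes, *GAS6* 3 and *PROS1* 2, and no window of these other members held a TEAD motif.

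*AXL* was lower than in siNC in every knockdown library, and its fall in siHHEX and siYAP/TAZ passed the test. It was at 18.9 FPKM in both siNC libraries, at 3.98, 10.5 and 4.88 FPKM in siHHEX 1, 2 and 3, at 5.23 and 6.48 FPKM in siYAP/TAZ 1 and 2, and at 7.43 FPKM in siTEAD1/2/3/4. No knockdown library reached the control level, and siHHEX 2 kept more *AXL* than any other knockdown library. The mean was 34.2% of siNC in siHHEX and 31.0% in siYAP/TAZ, and the siTEAD1/2/3/4 library was at 39.3%. On the log2(FPKM + 1) scale, which understates the change of genes at low levels, the difference from siNC was -1.51 ± 0.298 (SE) in siHHEX (limma adjusted p = 0.00937) and -1.54 ± 0.327 (SE) in siYAP/TAZ (limma adjusted p = 0.0257). Of all 10677 genes tested, 16.9% were called lower at an adjusted p under 0.05 in siHHEX and 2.13% in siYAP/TAZ. By a second rule, a fold change over 2 with a p under 0.05 taken here without adjustment, *AXL* was again lower in both comparisons, beside 0.927% of tested genes in siHHEX and 0.431% in siYAP/TAZ. The single siTEAD1/2/3/4 library has no replicate and was not tested. Its log2 difference of -1.24 for *AXL* was past a fold of 2 downward, as were those of 0.478% of tested genes. These comparisons share the siNC libraries. The labels do not say how the replicate cultures were grown, so that p-values measure the spread between these samples, which may in part be technical.

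Where a left-out library leaves 1 in its group, here and below, the spread comes from the other groups. The call on *AXL* in siHHEX held without siHHEX 1, 2 or 3 (limma adjusted p = 0.0283, 0.00206 and 0.0253) and was lost without either siNC library. Without siNC 1 or siNC 2 its adjusted p by limma was 0.0914 or 0.0772 in siHHEX and 0.157 or 0.158 in siYAP/TAZ, at log2 differences between -1.51 and -1.54. Without siYAP/TAZ 1 or 2 the adjusted p was 0.0814 or 0.116, and without the filter on low values it was 0.0519 in siHHEX and 0.0968 in siYAP/TAZ.

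**Figure D2:**
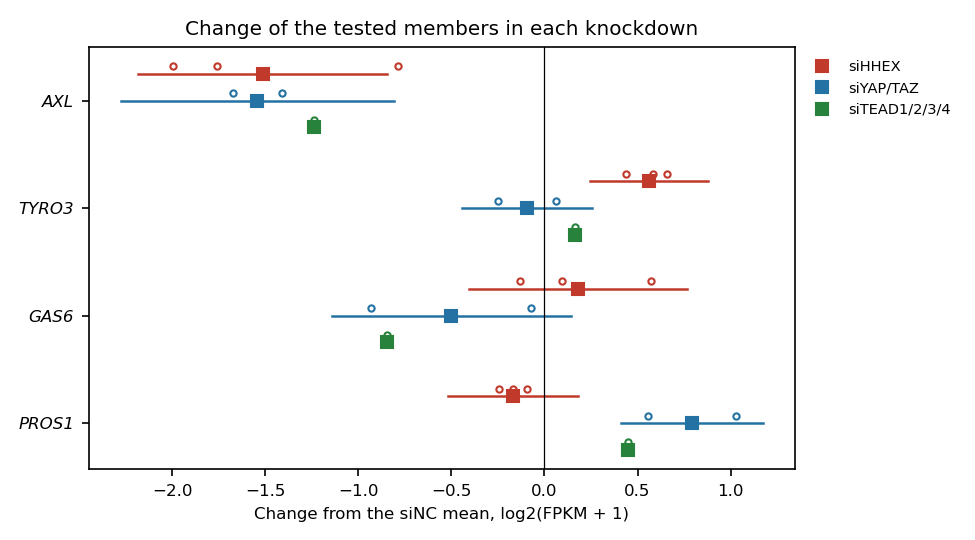
Change from the siNC mean on the log2(FPKM + 1) scale (horizontal axis) of the 4 members that passed the filter on low values. Squares are group means with the 95% confidence interval of the limma fit, none for the 1 siTEAD1/2/3/4 library, and open circles are libraries. *AXL* lies left of 0 in all 6 knockdown libraries, *TYRO3* lies right of 0 in the 3 siHHEX libraries, and *PROS1* lies right of 0 in the siYAP/TAZ and siTEAD1/2/3/4 libraries.

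The level of *AXL* was set beside the levels of its known regulators in the same libraries. In siHHEX, *AXL* was at 21.1%, 55.7% and 25.8% of the siNC mean in libraries 1, 2 and 3, and *YAP1* at 28.9%, 87.3% and 34.7%. *HHEX* was at 36.8%, 40.1% and 20.9% in the same libraries, and *TEAD1* at 37.5%, 54.7% and 28.4%. The siHHEX 2 library thus had the highest level of all 4 genes within siHHEX, and its *YAP1* lay far nearer to the control than that of the other siHHEX libraries. *YAP1* and *TEAD1* were lower in siHHEX as a group (log2 differences -1.07 and -1.25, limma adjusted p = 0.0429 and 0.00641), whereas *WWTR1* and *TEAD4* did not pass the test (log2 differences -0.06 and -0.11, limma adjusted p = 0.82 and 0.503). With a correction for GC content and length, *YAP1* was at -0.76 and no longer passed (limma adjusted p = 0.161), *TEAD1* stayed lower at -0.91 (limma adjusted p = 0.0189), and *TEAD4* was at -0.51 and passed (limma adjusted p = 0.031). In siTEAD1/2/3/4, *YAP1* stayed at 113% and *WWTR1* at 101% of the control with *AXL* at 39.3%. In siYAP/TAZ, *TEAD4* was lower (log2 difference -0.63, limma adjusted p = 0.025), at 60.2% and 65.2% of the control. The part of *YAP1*, *TEAD1* or *TEAD4* in the level of *AXL* was not tested.

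**Figure D3:**
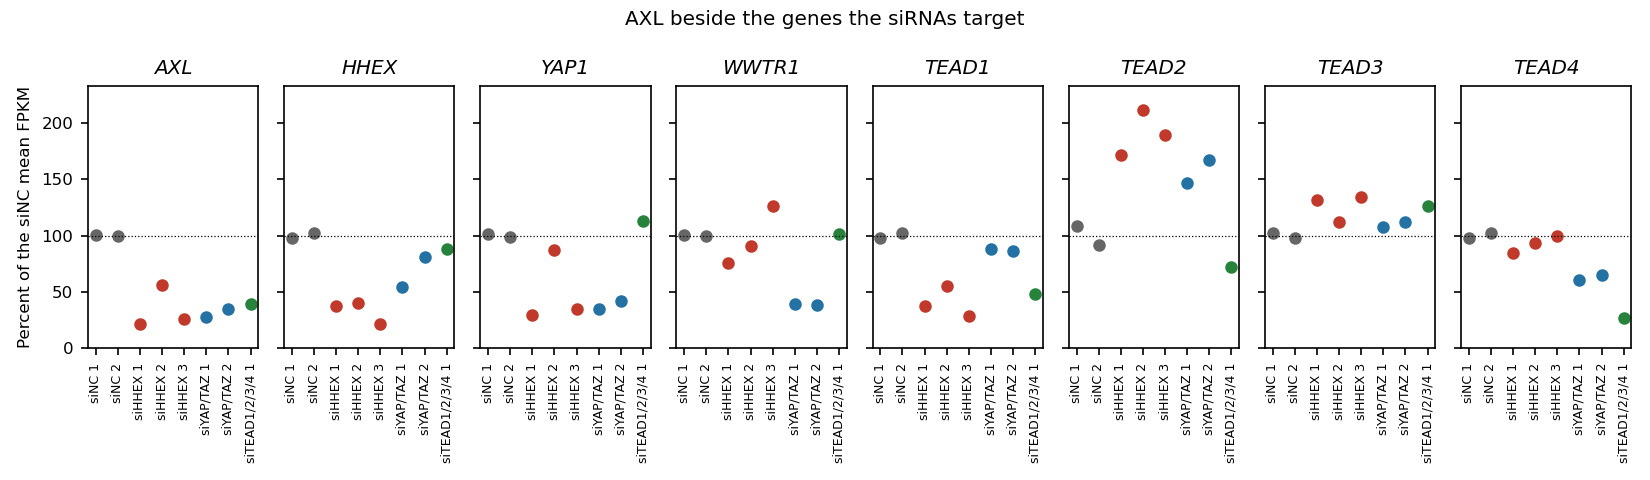
Level of *AXL* and of the genes the siRNAs target, in percent of the siNC mean FPKM (vertical axis, from 0), in each library (grey siNC, red siHHEX, blue siYAP/TAZ, green siTEAD1/2/3/4, and a dotted line at 100%). *AXL* and *YAP1* are both highest in siHHEX 2 among the siHHEX libraries, at 55.7% and 87.3%.

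Because an siRNA can also act on other mRNAs through its seed, bases 2 to 8 of the guide strand, the 3′ UTRs of the 5 genes were searched for the complement of each seed. The guide strands below were read from the reference at the site each siRNA of the methods matches, are written with T for U, and have the seed in capitals. Another listing in the study differs from the letters used here for 4 siRNAs, within the seed for siHHEX 1, siHHEX 2 and siTAZ 2 and outside it for siHHEX 3.
siHHEX 1 guide (HHEX coding sequence, chr10:92694599-92694617): aAATCTTGcctctgatcac
siHHEX 2 guide (HHEX coding sequence, chr10:92694648-92694666): cGAACATTgagagctatcc
siHHEX 3 guide (HHEX 3′ UTR, chr10:92695158-92695176): tGCCTTTCcattaagtggg
siTEAD1/3/4 guide (TEAD1 coding sequence, chr11:12930244-12930262): tTGTGGATgaagttgatca
siYAP 2 guide (YAP1 coding sequence, chr11:102114373-102114391): aAGAAGTAtctctgaccag
The *AXL* 3′ UTR of 1862 bases held matches to 3 of these guides, shown here with the matched letters in capitals.
AXL, siHHEX 1, chr19:41261154-41261172: atcagatgctcCAAGATTc
AXL, siHHEX 1, chr19:41261225-41261243: ttccattggtcCAAGATTc
AXL, siHHEX 2, chr19:41261428-41261446: tctaagactcaAATGTTCt
AXL, siTEAD1/3/4, chr19:41261377-41261395: agagtccaagaATCCACAt
The match word of siHHEX 1 was in the 3′ UTR of 12.4% of 10467 tested genes, that of siHHEX 2 in 15.1% and that of siTEAD1/3/4 in 9.91%. No seed of siHHEX 3, siYAP or siTAZ had a match in *AXL*, and *AXL* was at 25.8% of the control in siHHEX 3 and at 27.7% and 34.3% in the siYAP/TAZ libraries. Within siHHEX, with library numbers taken as siRNA numbers, the library with 2 matches had the lowest *AXL*. The library with none came next, and the library with 1 match had the highest. The seed of siYAP 2 had 1 match in the *PROS1* 3′ UTR, and no other seed matched *TYRO3*, *MERTK*, *GAS6* or *PROS1*.
PROS1, siYAP 2, chr3:93874048-93874066, minus strand: aaagaaattctTACTTCTc
That word was in 13.9% of tested genes, and *PROS1* was highest of all libraries in siYAP/TAZ 2, which was taken to have received this siRNA. With the letters of the other listing, siHHEX 1, siHHEX 2 and siTAZ 2 had 0 matches in any of the 5 genes, so that the matches shown for siHHEX 1 and 2 hold for the letters of the methods alone. Whether any of these matches acted on the mRNA was not tested.

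*TYRO3*, a receptor for both GAS6 and protein S, rose in siHHEX and not detectably in siYAP/TAZ. The gene lies on chromosome 15 of GRCh38 from 41557675 to 41583589 on the plus strand, and a processed pseudogene, *TYRO3P*, could share its reads. It was at 5.73 and 6.48 FPKM in siNC, at 9.63, 8.62 and 10.2 FPKM in siHHEX 1, 2 and 3, at 6.40 and 4.97 FPKM in siYAP/TAZ 1 and 2, and at 6.95 FPKM in siTEAD1/2/3/4. All siHHEX libraries lay above all other libraries, and siYAP/TAZ overlapped siNC. The log2 difference from siNC was 0.56 ± 0.142 (SE) in siHHEX (limma adjusted p = 0.0186), where 16% of tested genes were called higher. It was -0.09 ± 0.155 (SE) in siYAP/TAZ (limma adjusted p = 0.739; 95% interval -0.44 to 0.26) and 0.17 in siTEAD1/2/3/4. The siHHEX call was lost without siNC 1, siNC 2 or siHHEX 1 (limma adjusted p = 0.181, 0.101 and 0.051) and without the filter on low values (limma adjusted p = 0.0501).

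*MERTK*, on chromosome 2 from 111898607 to 112029561 of GRCh38, was the scarcest member. It was at 1.02 and 0.733 FPKM in siNC, at 0.968, 0.732 and 0.503 FPKM in siHHEX, at 0.591 and 0.975 FPKM in siYAP/TAZ and at 0.945 FPKM in siTEAD1/2/3/4. The groups overlapped throughout. Only 1 library reached 1 FPKM, so that *MERTK* did not pass the filter and was not tested. Its log2 differences from siNC, -0.12 in siHHEX, -0.08 in siYAP/TAZ and 0.06 in siTEAD1/2/3/4, were smaller than the pooled SD between replicates of 0.193.

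With *AXL* lower, the make-up of the receptor mRNA shifted. *AXL* was 73.7% and 72.3% of the summed receptor FPKM in siNC, 27.3%, 53.0% and 31.3% in siHHEX, 42.8% and 52.2% in siYAP/TAZ, and 48.5% in siTEAD1/2/3/4. Every knockdown library lay below siNC. *TYRO3* exceeded *AXL* in siHHEX 1, siHHEX 3 and siYAP/TAZ 1, and *AXL* exceeded *TYRO3* in the others. Summed over the receptors, siNC had 25.9 ± 0.287 FPKM (SD, n = 2) and siYAP/TAZ 12.3 ± 0.152 FPKM (SD, n = 2). The sum in siHHEX was 16.7 ± 2.81 FPKM (SD, n = 3), and that of the siTEAD1/2/3/4 library was 15.3 FPKM. Since these sums and shares contain *AXL* itself, no test was run on them.

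**Figure D4:**
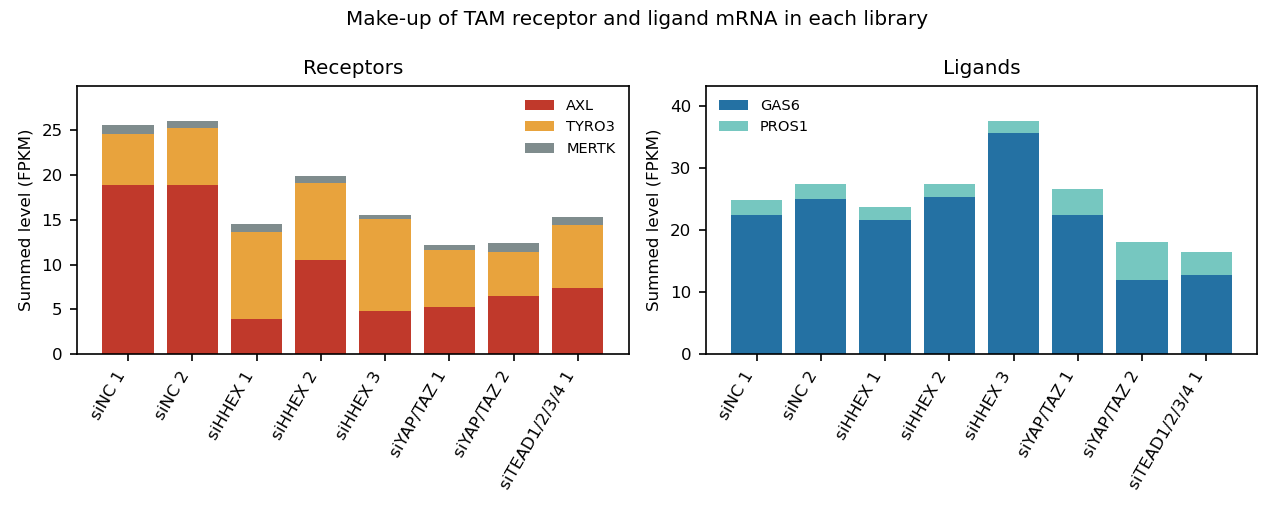
Summed FPKM (vertical axes, from 0) of the receptors *AXL*, *TYRO3* and *MERTK* (left) and of the ligands *GAS6* and *PROS1* (right) in each library, stacked by gene. *AXL* takes 73.7% and 72.3% of the receptor bar in siNC and at most 53.0% in a knockdown library, and *PROS1* takes 15.4% and 33.7% of the ligand bar in siYAP/TAZ against 9.80% and 9.09% in siNC.

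*PROS1*, the gene of protein S, rose in siYAP/TAZ. It lies on chromosome 3 of GRCh38 from 93873051 to 93980003 on the minus strand, and its near-identical pseudogene *PROS2P* could share its reads, which leaves its level uncertain. *PROS1* was at 2.43 and 2.49 FPKM in siNC, at 2.24, 2.09 and 1.92 FPKM in siHHEX 1, 2 and 3, at 4.09 and 6.06 FPKM in siYAP/TAZ 1 and 2, and at 3.73 FPKM in siTEAD1/2/3/4. The siYAP/TAZ and siTEAD1/2/3/4 libraries lay above both siNC libraries, and all siHHEX libraries lay below. The log2 difference was 0.79 ± 0.169 (SE) in siYAP/TAZ (limma adjusted p = 0.0265), where 6.15% of tested genes were called higher, 0.45 in siTEAD1/2/3/4, and -0.17 ± 0.154 (SE) in siHHEX (limma adjusted p = 0.403). The siYAP/TAZ call was lost without siNC 1, siNC 2 or siYAP/TAZ 2 (limma adjusted p = 0.202, 0.189 and 0.148) and without the filter on low values (limma adjusted p = 0.0757).

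*GAS6*, on chromosome 13 of GRCh38 from 113820549 to 113864076 on the minus strand, varied more between replicates than any other member but *AXL*, with a pooled SD of 0.399 on the log2 scale against 0.463 for *AXL*. It was at 22.4 and 24.9 FPKM in siNC, at 21.5, 25.3 and 35.6 FPKM in siHHEX 1, 2 and 3, at 22.5 and 11.9 FPKM in siYAP/TAZ 1 and 2, and at 12.7 FPKM in siTEAD1/2/3/4. Its high value was siHHEX 3, its low values were siYAP/TAZ 2 and siTEAD1/2/3/4, and both replicated knockdowns overlapped siNC. The log2 difference was 0.18 ± 0.261 (SE) in siHHEX (limma adjusted p = 0.602), -0.50 ± 0.286 (SE) in siYAP/TAZ (limma adjusted p = 0.289; 95% interval -1.14 to 0.14) and -0.85 in siTEAD1/2/3/4. In siYAP/TAZ it was -0.93 without siYAP/TAZ 1 and -0.0714 without siYAP/TAZ 2 (limma adjusted p = 0.0734 and 0.927), so that its size rested on the library left in. The antisense gene *GAS6-AS1* overlaps *GAS6*, and whether strand was used in counting is not given in the sources used here, so that reads of the pair cannot be told apart.

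The ligand differences in siHHEX had the sign of those of genes with like base composition. *GAS6* transcripts have 63.6% GC and *PROS1* transcripts 39.5%, near opposite ends of the range of the tested genes. Tested genes were ranked by GC content and divided into 10 classes of about the same size. The 1062 genes in the class of *GAS6* had a median log2 difference of 0.41 in siHHEX, and the 1061 genes in the class of *PROS1* had one of -0.41. After correction for GC content and length, *GAS6* was at -0.19 and *PROS1* at 0.24 in siHHEX, the opposite sign of the values above, and neither passed the test (limma adjusted p = 0.636 and 0.328). *AXL*, at 53.9% GC, lay in a class with a median of 0.21 and stayed at -1.62 after correction (limma adjusted p = 0.0233), and *TYRO3*, at 52.4% GC, lay in a class with a median of 0.08 and stayed at 0.51 (limma adjusted p = 0.0429). In siYAP/TAZ the medians of the classes of these 4 genes were between 0.06 and 0.10, and *PROS1* stayed at 0.72 after correction (limma adjusted p = 0.0269). In siTEAD1/2/3/4, *GAS6* was at -1.03 after correction, past a fold of 2, and *PROS1* at 0.51.

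The knockdowns of *HHEX* and of *YAP1* with *WWTR1* were then compared with each other. *AXL* differed by 0.03 ± 0.298 (SE) on the log2 scale, siHHEX minus siYAP/TAZ (limma adjusted p = 0.945), with a 95% interval from -0.64 to 0.70 that leaves room for sizeable differences either way. *TYRO3* was higher in siHHEX by 0.65 ± 0.142 (SE, limma adjusted p = 0.00948), and *PROS1* was lower in siHHEX by a log2 difference of -0.96 ± 0.154 (SE, limma adjusted p = 0.00466). *GAS6* differed by 0.68 ± 0.261 (SE) and did not pass the test (limma adjusted p = 0.0636). Corrected for GC content and length, *GAS6* was at 0.40 (limma adjusted p = 0.295). Of all tested genes, 25.9% were called lower and 13.5% higher in siHHEX than in siYAP/TAZ, so that calls were common in this comparison. Scaling the libraries to a common median moved the median of all tested genes by 0.18 here and turned that split around, from 2763 lower and 1437 higher to 1385 and 2508. After this scaling, *TYRO3* was at 0.83, *PROS1* at -0.78 and *GAS6* at 0.86, and *GAS6* then passed (limma adjusted p = 0.0352). *GAS6* also passed without siYAP/TAZ 1, at 1.11 (limma adjusted p = 0.0211), and was at 0.25 without siYAP/TAZ 2 (limma adjusted p = 0.488). The *PROS1* difference was -0.48 after correction for GC content and length (limma adjusted p = 0.0719), and the *TYRO3* call was lost without siYAP/TAZ 2 (limma adjusted p = 0.0775).

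Other genes were described from lists. 5 lists hold genes that act with the TAM receptors, and the others hold the members, the siRNA targets with factors of the *AXL* promoter, YAP/TEAD target genes and mesenchymal genes. Leaving aside markers of other cell types, they held 92 genes, of which 72 passed the filter. In siHHEX, 22 of them were lower and 10 higher, beside 1806 and 1712 of all 10677 tested genes, and in siYAP/TAZ 9 were lower and 4 higher, beside 227 and 657. Of the 49 tested genes in the 5 lists of genes that act with the receptors, 12 were lower and 8 higher in siHHEX, and 1 lower and 3 higher in siYAP/TAZ. After correction for GC content and length, 13 listed genes were lower and 1, *TYRO3*, higher in siHHEX, beside 340 and 378 of all tested genes, so that no other listed gene described below as higher in siHHEX kept its call. In the 5 lists, 3 genes were then lower in siHHEX, *MET*, *EGFR* and *ITGB5*, and none higher. In siYAP/TAZ the correction raised the lower genes of these lists from 1 to 5, *SOCS3*, *ITGB5*, *RANBP9*, *VKORC1L1* and *GRB2*, and 3 were higher. Over all tested genes it raised the lower calls in siYAP/TAZ from 227 to 653. Without siNC 1 or siNC 2 only 3 listed genes were lower and none higher in siHHEX. With median scaling the counts over all tested genes were 1440 lower and 2210 higher in siHHEX and 345 and 333 in siYAP/TAZ, where the scaling moved the median of all genes by -0.11.

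**Figure D5:**
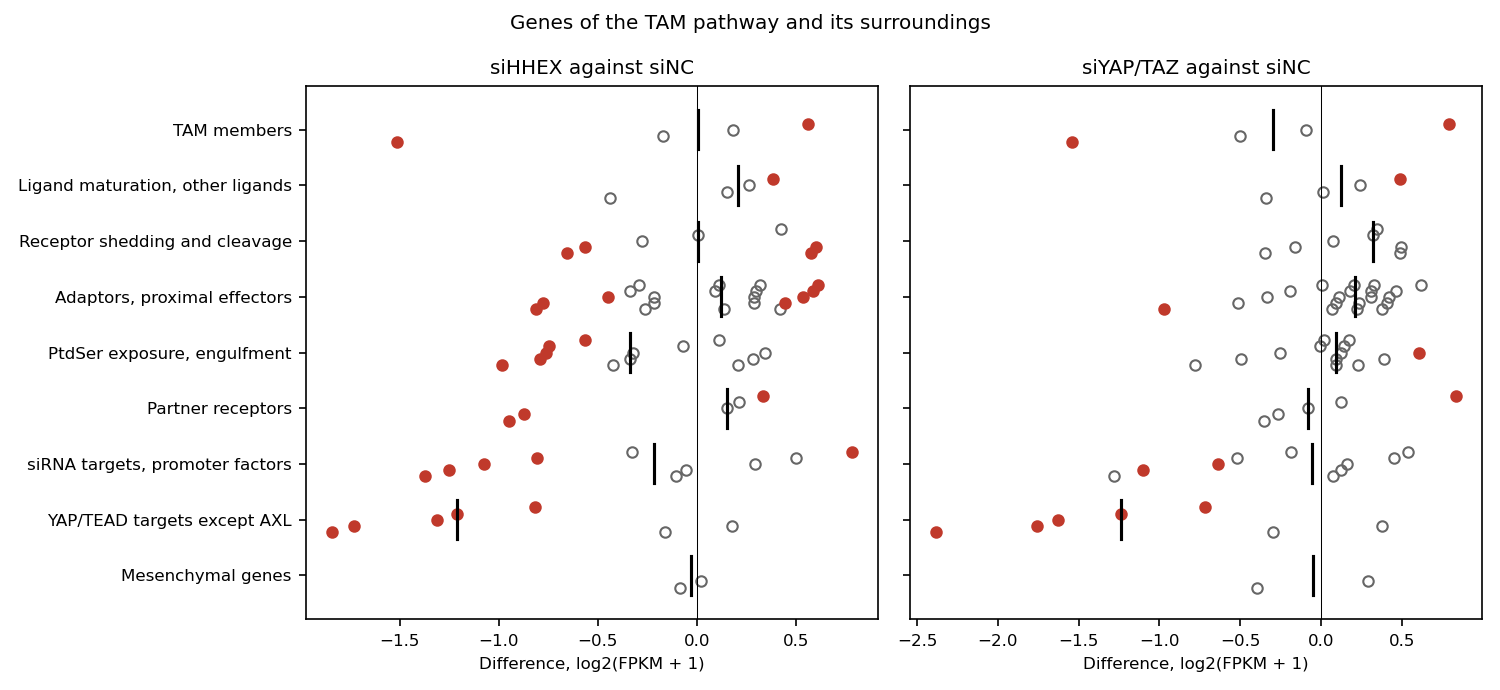
Difference from siNC on the log2(FPKM + 1) scale (horizontal axes) of the tested genes of each list, in siHHEX (left) and siYAP/TAZ (right). Filled circles passed an adjusted p of 0.05 by limma, open circles did not, and a bar marks the list median, which is near -1.2 for the YAP/TEAD target genes in both panels.

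Of the genes that mature the ligands or encode other TAM ligands, 4 of 6 passed the filter, and *TUB* and *TULP1* were near or at 0. *VKORC1*, the enzyme that recycles vitamin K for carboxylation, was the 1 gene that rose in siHHEX, from 40.0 and 48.5 FPKM in siNC to 60.5, 53.8 and 59.1 FPKM (log2 difference 0.38, limma adjusted p = 0.0474). Corrected for GC content and length, it was at -0.11 (limma adjusted p = 0.55). *LGALS3*, galectin-3, a reported MERTK ligand, was the 1 gene that rose in siYAP/TAZ, from 60.7 and 59.0 FPKM to 79.9 and 88.7 FPKM (log2 difference 0.49, limma adjusted p = 0.0393). Over all tested genes, 16% were called higher in siHHEX and 6.15% in siYAP/TAZ. The list median was 0.21 in siHHEX and 0.13 in siYAP/TAZ, beside -0.01 and 0.08 over all tested genes. *GGCX*, the carboxylase itself, lay between 3.07 and 4.15 FPKM in all libraries.

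Of the 7 genes for shedding and intramembrane cleavage, by which the AXL ectodomain is released, 2 were lower and 2 higher in siHHEX, beside 16.9% and 16% of all tested genes. The lower genes were the sheddases, *ADAM10*, at 14.9 and 14.6 FPKM in siNC and 10.3, 7.88 and 8.89 FPKM in siHHEX (log2 difference -0.66, limma adjusted p = 0.0099), and *ADAM17* (log2 difference -0.57, limma adjusted p = 0.0319). The higher genes were the γ-secretase subunits *APH1A* (log2 difference 0.60, limma adjusted p = 0.0082) and *PSENEN* (log2 difference 0.58, limma adjusted p = 0.0228). After the correction none of these 4 passed, with *ADAM10* at -0.17, *ADAM17* at -0.21, *APH1A* at 0.33 and *PSENEN* at 0.50 (limma adjusted p = 0.55, 0.395, 0.0689 and 0.063). None of the 7 passed the test in siYAP/TAZ, where the list median was 0.32.

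Of 22 adaptors and proximal effectors, 20 passed the filter. In siHHEX 3 were lower and 4 higher, beside 16.9% and 16% of all tested genes. Those with the largest differences were *CBL*, a ubiquitin ligase for receptor kinases (log2 difference -0.81, limma adjusted p = 0.0316), *PIK3CB*, a catalytic subunit of PI3-kinase (-0.78, limma adjusted p = 0.0118), *AKT1* (0.61, limma adjusted p = 0.0106) and *AKT2* (0.59, limma adjusted p = 0.0205), kinases downstream of PI3-kinase. None of these 4 passed after the correction, with *CBL* at -0.59, *PIK3CB* at -0.36, *AKT1* at 0.29 and *AKT2* at 0.37 (limma adjusted p = 0.119, 0.266, 0.15 and 0.111). *CBL* was at 8.27 and 9.11 FPKM in siNC and at 3.18, 7.14 and 3.91 FPKM in siHHEX, so that siHHEX 2 again kept the most. In siYAP/TAZ, *SOCS3*, an inhibitor of cytokine signalling, was the 1 gene called, at 3.65 and 3.24 FPKM against 7.53 and 7.92 FPKM in siNC (log2 difference -0.97, limma adjusted p = 0.0219). Over all tested genes, 2.13% were called lower and 6.15% higher in siYAP/TAZ. After the correction *RANBP9* and *GRB2* were called lower there too, at -0.59 and -0.41 (limma adjusted p = 0.0375 and 0.0387). The list medians were 0.12 in siHHEX and 0.21 in siYAP/TAZ.

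Of 20 genes for phosphatidylserine exposure and engulfment, 13 passed the filter and 2 were listed at 0 in every library. In siHHEX 5 were lower and none higher, with a list median of -0.34, beside 16.9% lower and a median of -0.01 over all tested genes. They included *ANO6*, a phospholipid scramblase, at 9.35 and 9.46 FPKM in siNC and 4.73, 5.63 and 2.84 FPKM in siHHEX (log2 difference -0.98, limma adjusted p = 0.0112), the integrin chains *ITGB5* (-0.79, limma adjusted p = 0.0191) and *ITGAV* (-0.75, limma adjusted p = 0.00748), and the engulfment adaptor *GULP1* (-0.76, limma adjusted p = 0.00789). *GULP1* transcripts have 34.4% GC, those of *ITGAV* 38.3% and those of *ANO6* 42.1%, and after the correction these genes were at -0.27, -0.27 and -0.61 without passing (limma adjusted p = 0.213, 0.339 and 0.0582). *ITGB5* stayed lower at -0.93 (limma adjusted p = 0.0266). In siYAP/TAZ only *DOCK1*, a RAC exchange factor, was called, and it was higher (log2 difference 0.60, limma adjusted p = 0.0425), beside 6.15% of all tested genes. *ITGB5* was at -0.78 in siYAP/TAZ (limma adjusted p = 0.0603), and after the correction it was at -0.88 and passed (limma adjusted p = 0.0299).

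All 5 partner receptors, which are reported to pair with AXL, passed the filter. *MET* was at 36.3 and 37.5 FPKM in siNC and at 16.5, 18.7 and 21.1 FPKM in siHHEX (log2 difference -0.95, limma adjusted p = 0.00387), and *EGFR* was at 6.39 and 7.25 FPKM in siNC and at 3.86, 3.87 and 2.28 FPKM in siHHEX (log2 difference -0.87, limma adjusted p = 0.0112). After the correction they stayed lower, at -0.62 and -0.74 (limma adjusted p = 0.0336 and 0.0366). *ERBB2* was higher in siHHEX (log2 difference 0.33, limma adjusted p = 0.0485) and at 0.07 after the correction (limma adjusted p = 0.709). In siYAP/TAZ the 1 gene called was *ERBB3*, which was higher, at 5.39 and 8.02 FPKM against 3.41 and 3.11 FPKM (log2 difference 0.84, limma adjusted p = 0.026). Over all tested genes, 16.9% were called lower and 16% higher in siHHEX, and 2.13% lower and 6.15% higher in siYAP/TAZ.

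Among factors known at the *AXL* promoter, *SP3*, a GC box factor, was lower in siHHEX (log2 difference -0.81, limma adjusted p = 0.0103), *TEAD2* was higher (0.78, limma adjusted p = 0.00709), and *SP1* and *MZF1* did not pass the test in either comparison. After the correction *SP3* was at -0.33 and *TEAD2* at 0.47, and neither passed (limma adjusted p = 0.0921 and 0.0739). Of 9 genes listed as YAP/TEAD targets beside *AXL*, 7 passed the filter. 5 of these, *CCND1*, *AMOTL2*, *CYR61*, *CTGF* and *LATS2*, were lower in both siHHEX and siYAP/TAZ, beside 16.9% and 2.13% of all tested genes, and *AREG* and *TGM2* passed in neither. After the correction these 5 were lower in both comparisons as well. *CTGF* reached 1 FPKM only in siNC, at 1.62 and 1.76 FPKM, and lay between 0.0794 and 0.424 FPKM in the knockdown libraries. It thus passed the filter through the control alone, so that a lower call was favoured in advance. Its log2 difference was also the median of this list in each of the siHHEX and siYAP/TAZ comparisons. In the siTEAD1/2/3/4 library *CCND1* (-1.30) and *AMOTL2* (-1.02) were past a fold of 2 downward. On the log2(FPKM + 1) scale *CTGF* (-0.92) and *CYR61* (-0.68) were not, although in FPKM *CTGF* was at 25.1% and *CYR61* at 58.7% of the siNC mean. *LATS2* was at 102%, *TGM2* at 124% and *AREG* at 131% of the siNC mean. The list was chosen with results of these libraries known, so that its direction is not independent evidence. On the log2(FPKM + 1) scale, the *AXL* difference of -1.51 in siHHEX lay between those of *AMOTL2* (-1.73) and *CYR61* (-1.31). Its -1.54 in siYAP/TAZ lay on that scale between those of *CYR61* (-1.63) and *CTGF* (-1.24). In FPKM, *AXL* was at 31.0% of the siNC mean in siYAP/TAZ and thus above both *CYR61* (26.3%) and *CTGF* (8.54%). Of 8 mesenchymal genes, with which *AXL* is often found, 2 passed the filter, *SNAI1* and *FN1*, and neither was called in siHHEX or siYAP/TAZ. After the correction *SNAI1* was at -0.45 in siHHEX and -0.47 in siYAP/TAZ and passed in both (limma adjusted p = 0.0493 and 0.0415).

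The 5 tested genes whose levels followed *AXL* most closely over the 8 libraries, by Pearson's r on log2(FPKM + 1), were *LDHA* (r = 0.994), *RBM28* (r = 0.983), *RNF115* (r = 0.972), *NETO2* (r = 0.969) and *FUBP3* (r = 0.967). The libraries share a cell line, and these values are a description of 8 points chosen as the highest among all tested genes. *LDHA*, lactate dehydrogenase A, was at 589 and 573 FPKM in siNC, at 354, 461 and 386 FPKM in siHHEX, at 383 and 401 FPKM in siYAP/TAZ and at 420 FPKM in siTEAD1/2/3/4, and like *AXL* it was highest in siHHEX 2 among the knockdown libraries. Its log2 differences were smaller than those of *AXL*, -0.55 in siHHEX and -0.57 in siYAP/TAZ (limma adjusted p = 0.0112 and 0.0307). After the correction *LDHA* was at -0.26 in siHHEX and no longer passed (limma adjusted p = 0.108), and at -0.63 in siYAP/TAZ (limma adjusted p = 0.00997). Among the members, r with *AXL* was -0.45 for *TYRO3*, -0.20 for *PROS1*, 0.24 for *MERTK* and 0.08 for *GAS6*.

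None of the nearest tested genes beside *AXL* on chromosome 19 was called lower with it. *CYP2S1* and *EGLN2* lie before it and *HNRNPUL1* and *TGFB1* after it. In siHHEX, *EGLN2*, an oxygen-sensing prolyl hydroxylase, was higher (log2 difference 0.73, limma adjusted p = 0.00921), and the others differed by between -0.20 and 0.18 without passing the test. *EGLN2* transcripts have 63.8% GC, and after the correction it was at 0.33 and did not pass (limma adjusted p = 0.0921). *CYP2S1* was then at -0.37, *HNRNPUL1* at -0.35 and *TGFB1* at -0.17 in siHHEX, without passing (limma adjusted p = 0.124, 0.071 and 0.535). In siYAP/TAZ the log2 differences of the 4 neighbours lay between -0.26 and 0.18, and none passed. After the correction *HNRNPUL1* was at -0.35 there and did not pass either (limma adjusted p = 0.073).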

How the data were processed

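RNA of 8 HCT-116 libraries was extracted with Trizol and sequenced on a HiSeq instrument by the authors, who deposited 1 FPKM value per gene and library. Their processing notes name Trimmomatic 0.36, HISAT2 2.0.5, Cufflinks 2.2.1 and HTSeq 0.9.1 without roles, and their methods name DESeq. The genome build of the RNA-seq is not given in the sources used here. FPKM values hold no read counts, so that the count test of the study could not be used and depth is unknown. The spacing of the lowest values put relative depth between 0.935 and 1.09 of siNC 1. This search kept only low values close to those of siNC 1, so that a large difference in depth could not have been found. It rested on between 107 and 135 genes in each of the other libraries. Genes at 0 numbered from 4996 in siYAP/TAZ 2 to 5988 in siHHEX 2. Libraries summed to between 331663 and 383423 FPKM.

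Differences were tested with limma 3.58.1 (R 4.3.3) on log2(FPKM + 1), with a variance trend, in 1 fit of 8 libraries and 4 groups taken from the labels. The 10677 genes that reached 1 FPKM in 2 or more libraries were tested, with Benjamini-Hochberg adjustment over all of them, and 9353 fell below. A gene was called at an adjusted p under 0.05. For siTEAD1/2/3/4, with 1 library, only a fold over 2 was recorded. Intervals are 95% confidence intervals of the fit. The fit was tested on simulated data. Gene positions, GC content, length and 3′ UTRs came from GENCODE 44 (GRCh38), for 99.4% of tested genes, and promoters from RefSeq (GRCh38.p14), matched by symbol for all 5 members. Python 3.11.15 with numpy 2.4.6, pandas 2.3.3 and matplotlib 3.10.9 made the tables and figures.

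Members and lists were chosen with earlier results of these data known. Named were the 5 members, the siRNA targets, up to 4 called genes of each list with the largest difference in siHHEX or siYAP/TAZ, the 5 genes most correlated with *AXL*, and the 2 tested genes nearest to *AXL* on each side. *LATS2*, marker genes and list members that did not pass were named after their values were seen. Alternatives were a pseudocount of 0.1, no filter, median scaling, a spline correction (4 degrees of freedom) for GC content and length, the compared groups alone, the replicate number as a block, the block with the correction, and a fit without each library of siNC, siHHEX and siYAP/TAZ in turn.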

Additional observations from a re-analysis of the deposited data

How the results depend on the processing

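Of 168 recalculated member differences, 133 were counted as kept. For tested differences this meant the same direction and the same side of the threshold. For *MERTK* and for siTEAD1/2/3/4, which were not tested, it meant a shift smaller than the pooled SD between replicates. *GAS6* in siTEAD1/2/3/4 was thus counted as kept, although the correction for GC content and length moved it from -0.85 to -1.03, past a fold of 2. Without the filter, limma adjusted p-values rose past 0.05 at unchanged differences, in siHHEX for *AXL* (-1.51) and *TYRO3* (0.56) and in siYAP/TAZ for *AXL* (-1.54) and *PROS1* (0.79), with fewer calls overall. Correction for GC content and length reversed *GAS6* (-0.19) and *PROS1* (0.24) in siHHEX, moved *TYRO3* in siTEAD1/2/3/4 to 0.0128 and ended the *PROS1* call between siHHEX and siYAP/TAZ (-0.48). Median scaling brought *GAS6* between siHHEX and siYAP/TAZ past the threshold (0.86). Leaving out 1 library at a time gave ranges in siHHEX of -1.88 to -1.27 for *AXL*, 0.49 to 0.64 for *TYRO3* and -0.0177 to 0.33 for *GAS6*. In siYAP/TAZ they were -1.68 to -1.41 for *AXL*, -0.25 to 0.0614 for *TYRO3*, 0.56 to 1.03 for *PROS1* and -0.93 to -0.0714 for *GAS6*. Between siHHEX and siYAP/TAZ they were -0.34 to 0.27 for *AXL*, 0.50 to 0.81 for *TYRO3* and 0.25 to 1.11 for *GAS6*. *AXL* between siHHEX and siYAP/TAZ was -0.34 without siHHEX 2 and -0.10 without siYAP/TAZ 1, *GAS6* in siHHEX was -0.0177 without siHHEX 3, and *TYRO3* in siYAP/TAZ was 0.0614 without siYAP/TAZ 2. Apart from the filter and the left-out libraries, which change the genes or samples tested, the cause of these shifts was not tested.

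The counts of listed genes, 22 lower and 10 higher in siHHEX and 9 lower and 4 higher in siYAP/TAZ, also moved. In siHHEX, 13 were lower and 1 higher after the GC and length correction (340 and 378 over all tested genes), while 5 were higher with no filter. In siYAP/TAZ, 5 were lower and 1 higher with no filter, 15 were lower with the correction (653 over all tested genes), 14 lower and 9 higher with the compared groups alone (539 and 1220 over all tested genes), and 2 were higher with median scaling. Without 1 library, between 3 and 30 were lower and between 0 and 16 higher in siHHEX, and between 1 and 6 lower and between 0 and 2 higher in siYAP/TAZ. Over all tested genes, calls in siHHEX (1806 lower, 1712 higher) fell to 9 and 10 without siNC 1, and calls in siYAP/TAZ (227 lower, 657 higher) to 7 and 8 without siNC 2.

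Samples with the same replicate number did not deviate together (correlations between -0.0704 and 0.0215), so that they share only a number. With the replicate number as a block, *TYRO3* in siHHEX was 0.51 (limma adjusted p = 0.0529), *GAS6* in siHHEX was -0.0177, and 3 listed genes were higher in siHHEX. All-gene calls in siHHEX then numbered 1039 lower and 1023 higher. With the block and the correction together, siHHEX had *AXL* at -1.49, *TYRO3* at 0.47, *GAS6* at -0.33 and *PROS1* at 0.21, with 9 listed genes lower and 0 higher. In siYAP/TAZ 16 were then lower and 2 higher, and between siHHEX and siYAP/TAZ *TYRO3* was at 0.71 and *PROS1* at -0.50, none of these member differences passing the threshold. *MERTK*, near 1 FPKM, is limited by its low level.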
